A study of Mus musculus with 12 samples.

Results

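The circadian clock genes Arntl, Clock, Npas2, Cry1, Nr1d1, Per1, Per2, Per3, Dbp and Tef, were measured in the livers of WT and hepatocyte-specific Ahr knockout (Ahr HKO) mice fed a control or an alcohol diet. They were chosen by gene symbol as members of the clock, and each of the 10 symbols stood in the table of 24532 genes once. All 10 passed the filter on low counts, which left 14038 genes to test. RNA-seq had been run on 12 livers of male C57BL/6 mice, 3 in each of 4 groups. The WT mice were Ahr fl/fl littermates without Cre, kept either on the isocaloric control liquid diet (WT+con) or on the Lieber-DeCarli liquid diet with ethanol at 5% (v/v), the source of 36% of its calories (WT+EtOH). The Ahr HKO mice were Ahr fl/fl Alb-Cre animals on the same diets (Ahr HKO+con and Ahr HKO+EtOH). Thus every mouse carried the floxed allele, with loxP sites around exon 2. Cre was driven by the albumin promoter, and the study describes the deletion as specific to hepatocytes. The mice were 10 to 12 weeks old at the start, the diets lasted 5 weeks, and the room had 12 h of light and 12 h of darkness a day. The hour at which each liver was taken is not given in the sources used here. Transcripts of these genes cycle through the day, and the part of the hour in the values was not tested.

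The clock of a cell is a loop of transcription. BMAL1 (the product of Arntl) pairs with CLOCK or its paralog NPAS2 and binds E-boxes in the DNA, which turns on the Per and Cry genes, Nr1d1 and Dbp. PER and CRY proteins then enter the nucleus and repress BMAL1 and CLOCK, REV-ERBα (the product of Nr1d1) represses Arntl, Clock, Npas2 and Cry1 through sites shared with the ROR receptors, and DBP and TEF, which are PAR bZIP factors, activate genes with a D-box. As a result, Arntl, Clock and Npas2 transcripts of mouse liver peak at the opposite side of the day from Dbp, Nr1d1, Tef and the Per genes, while Cry1 peaks later than the latter. In the following, Arntl, Clock, Npas2 and Cry1 are called Arntl-phase genes, and Nr1d1, Per1, Per2, Per3, Dbp and Tef are called Dbp-phase genes. AhR is a ligand-activated factor of the same bHLH-PAS family as BMAL1, CLOCK and NPAS2, and binds a core of GCGTG.

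The elements through which these factors act were looked for in the RefSeq promoter windows of GRCm38.p6, from 250 bases before to 50 bases after a start site. Windows were found for 9 of the 10 genes, all but Per2, and numbered 14 with the alternative starts. The letters searched, on both strands, were CACGTG for the E-box, CACGTT for the E'-box, TTATGNAA for the D-box, TAGGTCA or TGGGTCA for the core of the ROR element and GCGTG for the AhR core. The E-box letters hold neither the E'-box nor the AhR core. Below are the matches other than AhR cores, printed 5′ to 3′ on the strand of the gene with the matched letters in capitals and the first base of the match counted from the start site, since they show at which of the 10 genes the letters of each arm of the loop stand.
Per1 E-box, chr11:69098772-69098799, plus strand, position -166: gcacccaagtcCACGTGcagggatgtgt
Per1 D-box, chr11:69098914-69098943, plus strand, position -24: agggcctggcaTTATGCAAcccgcctccca
Per3 D-box, chr4:151044852-151044881, minus strand, position -205: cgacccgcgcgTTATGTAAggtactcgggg
Per3 D-box, chr4:151044805-151044834, minus strand, position -158: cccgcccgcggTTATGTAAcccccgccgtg
Cry1 E-box, chr10:85185098-85185125, minus strand, position -60: gtgccggtggtCACGTGgggtgcatgcc
Cry1 E'-box, chr10:85185117-85185144, minus strand, position -79: cacacttcagaAACGTGaggtgccggtg
Nr1d1 E'-box, chr11:98775389-98775416, minus strand, position -28: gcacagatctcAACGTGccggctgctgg
Tef E-box, chr15:81802535-81802562, plus strand, position -127: tgctgtggctcCACGTGctgcagctggc
Tef E-box of the second start, chr15:81811265-81811292, plus strand, position -138: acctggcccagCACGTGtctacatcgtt
Arntl ROR core, chr7:113207530-113207558, plus strand, position 30: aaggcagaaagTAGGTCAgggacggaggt

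Among all 32851 windows of this length, 7.15% held the E-box, 4.68% the E'-box, 3.38% the D-box, 6.45% the ROR core and 32.4% the AhR core. Per3 was the gene with a pair of D-boxes in its window, and Cry1 the one with an E-box and an E'-box side by side. The AhR core was found in windows of Npas2, Per3, Clock, Dbp, Cry1, Per1, Nr1d1 and Tef, and for Clock, Dbp and Npas2 no other motif matched. This list is by gene, whereas the shares above are of single windows. Clock, Per1 and Tef had several windows, of which some held no AhR core. These matches are descriptions of 300 bases and say nothing of sites elsewhere in the genes.

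The libraries held 46306518 to 74336255 reads counted on genes, and 3 counts, the level taken as the smallest detectable, corresponded to 0.0425 to 0.0676 CPM. CPM here means counts scaled by the total of the library and its TMM factor. Ahr itself was not lower in the libraries labelled Ahr HKO: it lay at 16.6 to 20.1 CPM in WT+con, 20.8 to 30.5 in WT+EtOH, 41.3 to 65.5 in Ahr HKO+con and 24.7 to 41.8 in Ahr HKO+EtOH. The counts cover the whole gene and do not separate the deleted exon, so they are no check of the label. Cyp1a2, a target of AhR in hepatocytes, was at 398 to 617 CPM in WT+con and at 90.7 to 258 in the libraries labelled Ahr HKO+con. On EtOH it was at 992 to 1212 CPM in WT and at 629 to 684 CPM in Ahr HKO. Hepatocyte markers (Alb, Apoa1, Ttr, Hnf4a, Cps1 and Apob) summed to 70090 to 111600 CPM in the 12 livers, and no marker of the 6 liver cell types read was at 0 in every liver of a group.

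Per length of transcript, on the FPKM scale, Nr1d1 was the most abundant of the 10 genes with a mean of 51.8 over the 12 livers, followed by Dbp at 45.6 and Tef at 29.9. Per1 at 8.74, Per2 at 5.04, Clock at 3.86, Per3 at 2.98, Arntl at 2.17 and Cry1 at 1.98 came next. Npas2 was lowest at 0.28. Dbp spanned 14.3-fold between its lowest and its highest liver on the CPM scale, Per3 11.1-fold and Per1 9.12-fold, whereas Clock spanned 2.04-fold.

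**Figure D1:**
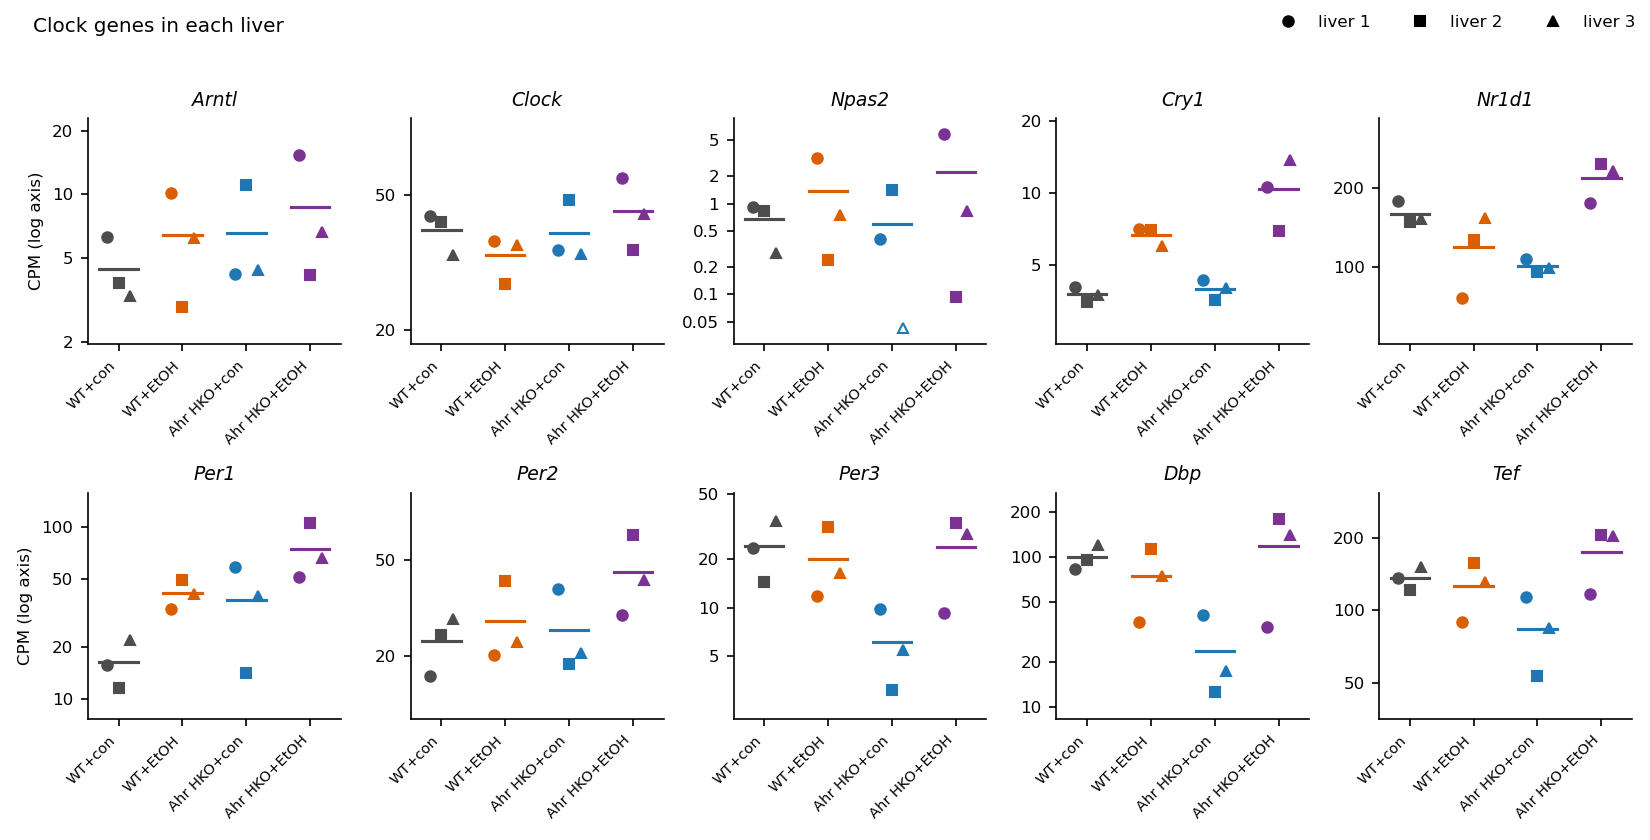
CPM (log axis) of the 10 genes in each liver, in panels with their own scale, by group. Symbols mark the liver number, horizontal lines mark the group mean (n = 3), and the open triangle of Npas2 is a liver with 0 counts drawn at the level of 3 counts. Dbp and Per3 of Ahr HKO+con lie below WT+con, and Cry1 of WT+EtOH lies above WT+con.

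Fold changes are given as log2 fold change (FC) ± SE with adjusted P values from the quasi-likelihood test of edgeR, adjusted over the 14038 genes, and genes with an adjusted P value under 0.05 were called. Coordinates are those of RefSeq in GRCm38.p6. Arntl (Entrez Gene 11865, chr7:113178471-113314126) encodes BMAL1. It was at 6.26, 3.80 and 3.29 CPM in WT+con livers 1, 2 and 3, and at 10.1, 2.94 and 6.22 CPM in WT+EtOH. In Ahr HKO+con it was at 4.18, 11.1 and 4.40 CPM, and in Ahr HKO+EtOH at 15.3, 4.17 and 6.63 CPM. The highest liver was 1.90-fold above the lowest in WT+con, and 3.44-fold, 2.65-fold and 3.67-fold in the others, and all 4 groups overlapped. The group means rose in the order WT+con (4.45 ± 1.59 CPM, SD, n = 3), WT+EtOH (6.43 ± 3.59), Ahr HKO+con (6.56 ± 3.93) and Ahr HKO+EtOH (8.69 ± 5.84), and no neighbours in that order differed beyond their spread. No comparison was called for Arntl, with log2 FCs of 0.42 to 0.56 among the pairs of groups and adjusted P values of 0.357 or more.

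Clock (12753, chr5:76209868-76305603), the partner of BMAL1, was at 43.2, 41.5 and 33.3 CPM in WT+con and at 36.6, 27.4 and 35.7 CPM in WT+EtOH. It was at 34.4, 48.2 and 33.5 CPM in Ahr HKO+con and at 55.9, 34.5 and 43.9 CPM in Ahr HKO+EtOH. The liver with the most Arntl was also the one with the most Clock in each group, and the groups overlapped. No comparison was called, and the largest difference between 2 groups was a log2 FC of 0.43 ± 0.185 (SE) for Ahr HKO against WT on EtOH (adjusted P = 0.240).

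Npas2 (18143, chr1:39193702-39363240), which can take the place of CLOCK, was the most scattered. Its counts were 42, 46 and 14 in WT+con, 168, 15 and 47 in WT+EtOH, 25, 82 and 0 in Ahr HKO+con and 412, 6 and 37 in Ahr HKO+EtOH, equal to 0.917, 0.821 and 0.286 CPM, 3.17, 0.238 and 0.748 CPM, 0.408, 1.40 and 0 CPM, and 5.84, 0.0926 and 0.834 CPM. Within Ahr HKO+EtOH the highest liver was 63.1-fold above the lowest. No group stood apart from another, and no comparison was called, the largest log2 FC between 2 groups being 1.91 ± 1.46 (SE) for EtOH against con in Ahr HKO (adjusted P = 0.351).

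Cry1 (12952, chr10:85131700-85185054), a repressor of BMAL1 and CLOCK, was at 4.06, 3.50 and 3.74 CPM in WT+con and at 7.10, 6.99 and 6.03 CPM in WT+EtOH. In Ahr HKO+con it was at 4.31, 3.57 and 3.99 CPM, and in Ahr HKO+EtOH at 10.6, 6.93 and 13.8 CPM. Every EtOH liver exceeded every con liver, in both genotypes. Cry1 rose with EtOH by a log2 FC of 0.85 ± 0.142 (SE) in WT (adjusted P = 0.0158) and of 1.40 ± 0.25 in Ahr HKO (adjusted P = 0.00791). The responses of the genotypes were not called different, with a difference of 0.57 ± 0.295 (adjusted P = 0.189). Between the genotypes on con, the log2 FC was 0.08 ± 0.151.

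Among the Dbp-phase genes, Nr1d1 (217166, chr11:98767932-98775377) encodes the repressor REV-ERBα. It was at 178, 148 and 153 CPM in WT+con and at 75.7, 127 and 154 CPM in WT+EtOH. It was at 107, 94.9 and 98.8 CPM in Ahr HKO+con and at 175, 248 and 232 CPM in Ahr HKO+EtOH. All 3 Ahr HKO+con livers lay below the WT+con livers, all 3 Ahr HKO+EtOH livers lay above the livers of both WT+EtOH and Ahr HKO+con, and liver 1 of WT+EtOH was the lowest of the 12. Nr1d1 was lower in Ahr HKO than in WT on con by a log2 FC of -0.67 ± 0.111 (adjusted P = 0.00545) and rose with EtOH in Ahr HKO by 1.12 ± 0.154 (adjusted P = 0.00365). In WT the log2 FC with EtOH was -0.41 ± 0.245 (adjusted P = 0.330), and the difference between the responses was 1.55 ± 0.309 (adjusted P = 0.00587).

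Per1, Per2 and Per3 encode the PER proteins, the repressors that work together with CRY. Per1 (18626, chr11:69095108-69109965) was at 15.7, 11.5 and 22.1 CPM in WT+con, at 33.4, 49.0 and 40.9 CPM in WT+EtOH, at 58.7, 14.2 and 39.7 CPM in Ahr HKO+con and at 51.3, 105 and 65.97 CPM in Ahr HKO+EtOH. The WT groups did not overlap, and Per1 rose with EtOH in WT by a log2 FC of 1.34 ± 0.251 (adjusted P = 0.0221). In Ahr HKO the con livers were spread 4.15-fold, and the log2 FC of 0.98 ± 0.498 was not called (adjusted P = 0.172). The difference between the genotypes on con, 1.19 ± 0.479, was not called either (adjusted P = 0.101), with liver 2 of Ahr HKO+con inside the range of WT+con. Over the 6 fits with 1 liver left out, this difference ranged from 0.72 to 1.58, with adjusted P values of 0.0129 to 0.288. It was called in 1 of them, the fit without Ahr HKO+con liver 2 (1.58, adjusted P = 0.0129).

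Per2 (18627, chr1:91415977-91459351) was at 16.5, 24.4 and 28.5 CPM in WT+con, at 20.3, 40.8 and 23.0 CPM in WT+EtOH, at 38.0, 18.5 and 20.6 CPM in Ahr HKO+con and at 29.6, 63.3 and 41.3 CPM in Ahr HKO+EtOH. Ahr HKO+EtOH had the highest mean (44.7 ± 17.1 CPM, SD, n = 3), and every group overlapped with its neighbours. The largest difference between 2 groups was a log2 FC of 0.80 ± 0.355 for EtOH in Ahr HKO (adjusted P = 0.126), and no comparison was called. Without Ahr HKO+con liver 1 this difference was 1.20 (adjusted P = 0.0435), the 1 fit of 6 with a liver left out that called it. Over the 6 fits it ranged from 0.47 to 1.20, with adjusted P values of up to 0.344.

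Per3 (18628, chr4:150997018-151044707) was at 23.5, 14.4 and 34.1 CPM in WT+con and at 11.7, 31.4 and 16.4 CPM in WT+EtOH. It was at 9.83, 3.09 and 5.44 CPM in Ahr HKO+con and at 9.30, 33.4 and 28.5 CPM in Ahr HKO+EtOH. The Ahr HKO+con livers lay below all WT livers, and liver 1 of Ahr HKO+EtOH remained in their range. Per3 was lower in Ahr HKO than in WT on con by a log2 FC of -1.96 ± 0.455 (adjusted P = 0.0172) and higher with EtOH in Ahr HKO by 1.95 ± 0.56 (adjusted P = 0.0369).

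Dbp (13170, chr7:45705100-45710203), an activator of D-box genes and a direct output of BMAL1 and CLOCK, showed the widest differences. It was at 83.4, 96.1 and 121 CPM in WT+con and at 37.2, 113 and 74.6 CPM in WT+EtOH. It was at 41.1, 12.5 and 17.5 CPM in Ahr HKO+con and at 33.9, 179 and 141 CPM in Ahr HKO+EtOH. The Ahr HKO+con livers all lay below those of WT+con, whereas the Ahr HKO+EtOH group held both a low liver, inside the range of Ahr HKO+con, and the 2 highest of the 12. Dbp was lower in Ahr HKO than in WT on con by a log2 FC of -2.08 ± 0.422 (adjusted P = 0.0108) and higher with EtOH in Ahr HKO by 2.31 ± 0.672 (adjusted P = 0.0380). In WT the log2 FC with EtOH was -0.40 ± 0.369 (adjusted P = 0.537), and the difference between the responses was 2.74 ± 0.839 (adjusted P = 0.0377).

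Tef (21685, chr15:81802673-81826863), the PAR bZIP paralog of Dbp, was at 136, 121 and 151 CPM in WT+con, at 89.2, 158 and 131 CPM in WT+EtOH, at 113, 53.1 and 84.1 CPM in Ahr HKO+con and at 116, 205 and 203 CPM in Ahr HKO+EtOH. It rose with EtOH in Ahr HKO by a log2 FC of 1.06 ± 0.323 (adjusted P = 0.0438), with no overlap between the groups. All Ahr HKO+con livers lay below the WT+con livers, but the log2 FC of -0.70 ± 0.254 missed the threshold (adjusted P = 0.0755). It was called without Ahr HKO+con liver 1 (adjusted P = 0.0245) and by DESeq2 (adjusted P = 0.0227). That fit was the 1 of 6 with a liver left out that called it, and the adjusted P value reached 0.184 among the 6.

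**Figure D2:**
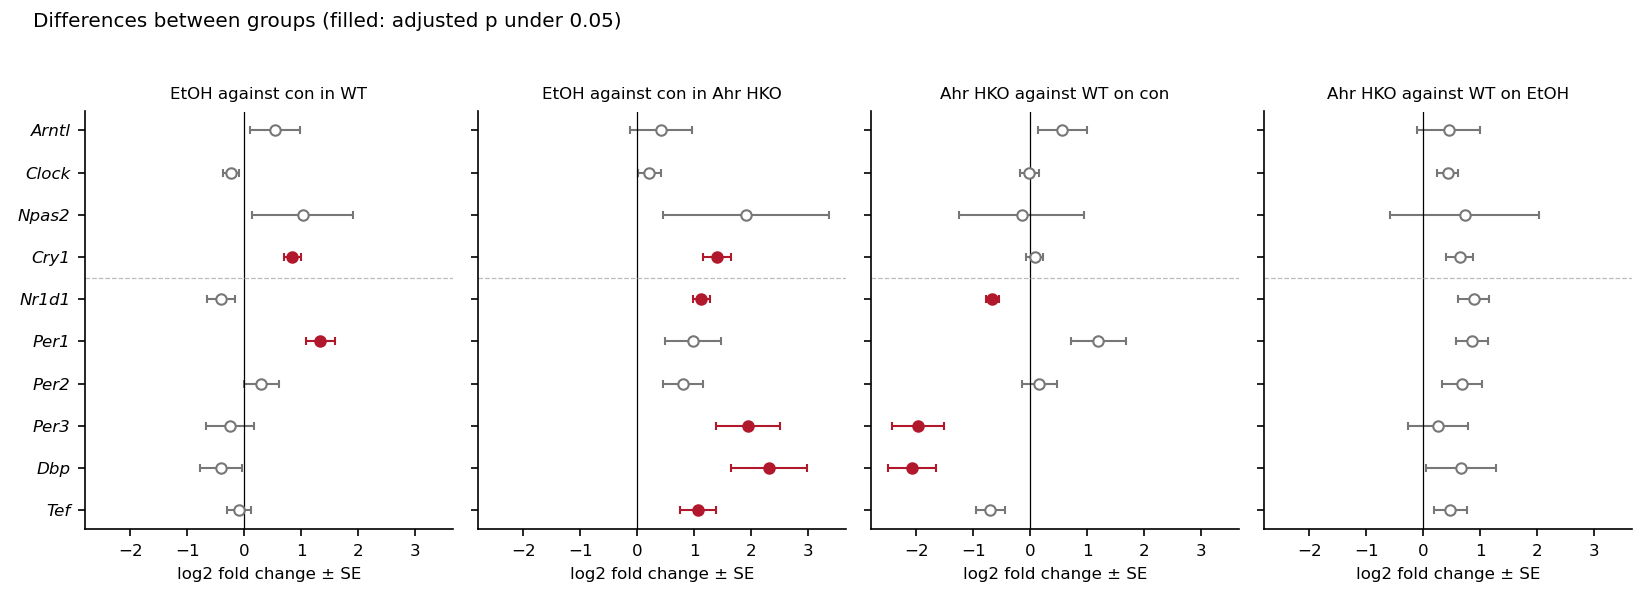
Log2 fold change with its standard error (bars) of the 10 genes in 4 comparisons of 3 against 3 livers. Filled red points have an adjusted P value under 0.05 (edgeR), and the dashed line divides Arntl-phase genes above from Dbp-phase genes below. Nr1d1, Per3 and Dbp are to the left of 0 for Ahr HKO against WT on con and to the right for EtOH against con in Ahr HKO, comparisons that share the Ahr HKO+con livers.

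The question of the first comparison was what alcohol changed in WT livers. Cry1 and Per1 rose, and the other 8 genes were not called. Thus 2 of 10 genes were called, both higher, where 9.47% of all tested genes were called and 4.84% were called higher. The groups did not overlap for the same 2 genes, against 32.9% of all tested genes, which is no more than the background. The median log2 FC was 0.69 for the Arntl-phase genes and -0.17 for the Dbp-phase genes, against 0.03 for all tested genes. Of the Arntl-phase genes only Cry1 was called, and Clock had a log2 FC of -0.23. Without WT+EtOH liver 1 the log2 FC of Npas2 was -0.46, and that of Arntl was as low as 0.04 with 1 liver left out. Cry1 lost its call without WT+con liver 2 (adjusted P = 0.0705) or liver 3 (adjusted P = 0.0656), and Per1 without WT+con liver 1 (0.0849), WT+con liver 2 (0.0583) or WT+EtOH liver 2 (0.0546). With all 12 libraries in a single fit the adjusted P value of Per1 was 0.0790 (edgeR).

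In Ahr HKO livers, alcohol was accompanied by higher Cry1, Nr1d1, Per3, Dbp and Tef. These were 5 of 10 genes, all higher, where 30.8% of all tested genes were called and 14.9% were called higher. Of the 5, 4 were Dbp-phase genes. Groups did not overlap for Cry1, Nr1d1 and Tef, that is 3 of 10 genes against 49.8% of all genes. The median log2 FC was 0.91 for the Arntl-phase and 1.09 for the Dbp-phase genes, against -0.02 for all tested genes, with Cry1 the 1 Arntl-phase gene called. Without Ahr HKO+EtOH liver 1 the log2 FC of Arntl was -0.28 and that of Npas2 -0.42. The calls of Cry1 and Nr1d1 were kept without any single liver. Those of Per3, Dbp and Tef were lost without Ahr HKO+con liver 2 or 3 and without Ahr HKO+EtOH liver 2 or 3, with adjusted P values of 0.0931 to 0.107 for Dbp, 0.0911 to 0.0985 for Per3 and 0.0891 to 0.116 for Tef, and limma on the FPKM values did not call Dbp (adjusted P = 0.0520 to 0.0629).

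Between the genotypes on con, Nr1d1, Per3 and Dbp were lower in Ahr HKO and no gene was called higher by edgeR or DESeq2, Per1 being the 1 gene higher at an unadjusted P value under 0.05. These 3 of 10 genes, all lower, stand against 29.6% of all tested genes called and 14.2% called lower, so that the number of calls is near the background. In all, 4 genes, the above 3 and Tef, did not overlap between the groups, against 47.3% of all tested genes. The Arntl-phase genes had a median log2 FC of 0.03 and the Dbp-phase genes of -0.69, with -0.001 for all tested genes. The call of Per3 was lost without WT+con liver 3 (adjusted P = 0.0547). This comparison and the preceding one share the Ahr HKO+con livers, whose values enter them with opposite signs.

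On EtOH, none of the 10 genes was called between Ahr HKO and WT by edgeR, where 1.1% of all tested genes were. Cry1, Nr1d1 and Per1 had an unadjusted P value under 0.05, as had 21% of all tested genes, and DESeq2 called 2 genes, Nr1d1 and Per1, where it called 10.8% of all tested genes. Both of these were higher in every Ahr HKO+EtOH liver than in any WT+EtOH liver, 2 of 10 genes without overlap against 27.9% of all tested genes. The 10 log2 FCs of edgeR lay between 0.25 and 0.88. Those of Arntl, Npas2 and Per3 were below 0 when single livers were left out, at -0.24 and -1.60 for Arntl and Npas2 without Ahr HKO+EtOH liver 1 and at -0.0177 and -0.087 for Per3 without WT+EtOH liver 1 or Ahr HKO+EtOH liver 2, and limma on log2(FPKM + 1) and log2(FPKM + 0.1) gave -0.00934 and -0.0307 for Per3.

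The interaction of genotype and diet asks whether alcohol acted differently in the genotypes. It was called for Nr1d1 and Dbp, both with the higher response in Ahr HKO, that is 2 of 10 genes where 22.3% of all tested genes were called and 11.2% were called in this direction. Per3 (2.22 ± 0.772, adjusted P = 0.0594) and Tef (1.18 ± 0.415, adjusted P = 0.0623) were just short of the threshold. They were called by DESeq2 (adjusted P = 0.0364 and 0.0252). Per3 was also called without WT+EtOH liver 2, Ahr HKO+con liver 1 or Ahr HKO+EtOH liver 1 (adjusted P = 0.0271 to 0.0402), Tef without Ahr HKO+con liver 1 (0.0371) or Ahr HKO+EtOH liver 1 (0.0329), and Cry1 without Ahr HKO+EtOH liver 2 (0.0292). The call of Nr1d1 held in all 12 fits that left out 1 liver, whereas that of Dbp was lost in 9 of them, with adjusted P values of 0.0575 to 0.0831. These 9 were all but the fits without WT+EtOH liver 2, Ahr HKO+con liver 1 or Ahr HKO+EtOH liver 1, and limma on FPKM gave 0.0507 to 0.0674 for Dbp.

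The comparison of the 2 sets was then made inside each liver. Since Arntl and Dbp were read from the same library, their ratio does not depend on how libraries are scaled. For each read of Arntl, WT+con livers 1, 2 and 3 had 13.3, 25.3 and 36.8 reads of Dbp, and WT+EtOH livers had 3.67, 38.3 and 11.99. Ahr HKO+con livers had 9.83, 1.13 and 3.98, and Ahr HKO+EtOH livers had 2.22, 43.0 and 21.3. The Ahr HKO+con ratios all lay below the WT+con ratios, and every other pair of groups overlapped. The ratio spanned a wider range inside Ahr HKO+EtOH than between the medians of any groups.

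The mean log2 CPM of the 4 Arntl-phase genes minus that of the 6 Dbp-phase genes was -3.08, -3.22 and -4.20 in WT+con, -1.89, -4.35 and -3.23 in WT+EtOH, -3.53, -1.41 and -3.78 in Ahr HKO+con, and -1.60, -5.06 and -3.54 in Ahr HKO+EtOH. In group means this was -3.50 ± 0.611 (SD, n = 3), -3.15 ± 1.23, -2.91 ± 1.299 and -3.40 ± 1.73. The groups overlapped, and their means differed by less than the spread between livers. Liver 1 of WT+EtOH, liver 2 of Ahr HKO+con and liver 1 of Ahr HKO+EtOH were the highest of their groups. The same 3 livers had the most Arntl, Clock and Npas2 of their groups and the least of each of the 6 Dbp-phase genes. Npas2, at 0 to 412 counts, has the same weight in the Arntl-phase mean as the other genes. Ahr HKO+con liver 3, with 0 counts of Npas2, had an Arntl-phase mean of 1.10 and a Dbp-phase mean of 4.88. In liver 1 of that group these means were 2.03 and 5.56.

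**Figure D3:**
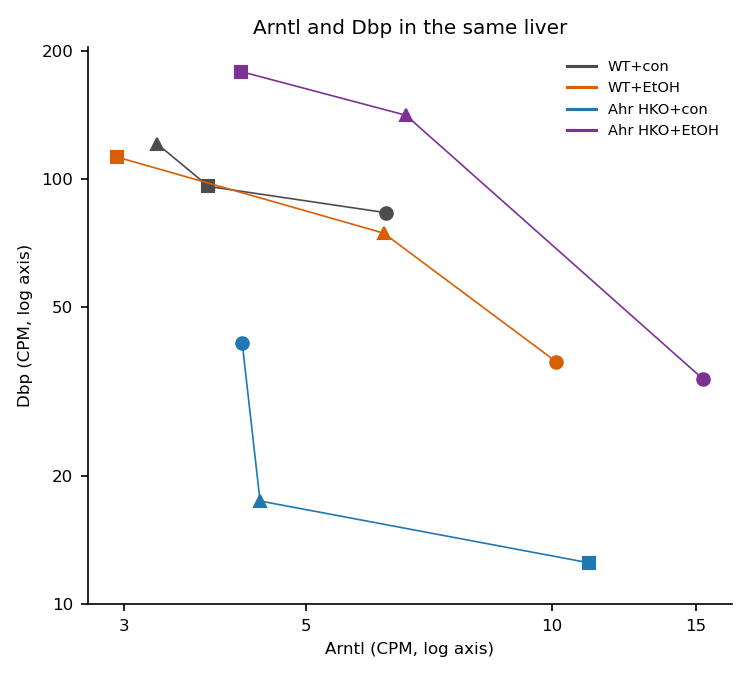
Arntl against Dbp in CPM (both axes log), 1 symbol per liver with the symbol giving the liver number as in the plot of values by liver, and lines joining the livers of a group in the order of Arntl. Every line falls from left to right, and the line of Ahr HKO+con lies below the others.

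Within all 4 groups the order of the livers by Dbp was the reverse of the order by Arntl. Of the 12 pairs of livers that share a group, 12 had Arntl and Dbp in opposite order, and the same held for Arntl and Per2. Among the 11725 genes with a mean of at least 1 CPM that were compared with Arntl, 16 genes, or 0.136%, were in the reverse order in every group. Clock followed the order of Arntl in 11 of 12 pairs and Npas2 in 11 of 12, and Clock and Npas2 had the same order in 12 of 12. Per1, Per3 and Tef were ordered alike in 12 of 12 pairs. This comparison of orders was added after the values were seen, and it is a description without a test. By counts over the table total, without TMM factors, 11 of 12 pairs were opposite for Arntl and Dbp, and by FPKM 12 of 12.

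The deviations of log2 CPM from the group means gave the same picture across the 12 livers. Arntl correlated with Clock at r = 0.94 and with Npas2 at r = 0.86, and with Dbp at r = -0.89, Per2 at r = -0.88, Tef at r = -0.88, Per3 at r = -0.85, Per1 at r = -0.76 and Nr1d1 at r = -0.54. All 15 pairs of Dbp-phase genes were positive, from 0.39 for Nr1d1 and Per2 to 0.95 for Per3 and Tef. Cry1 stood aside, with r between 0.19 and 0.32 to the other Arntl-phase genes and between -0.23 and 0.07 to the Dbp-phase genes. Of the 24 pairs between the sets, 22 were negative, and the 2 that were not both included Cry1. These values share the libraries and their scaling, and with 3 livers a group they are descriptions of these 12 livers.

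**Figure D4:**
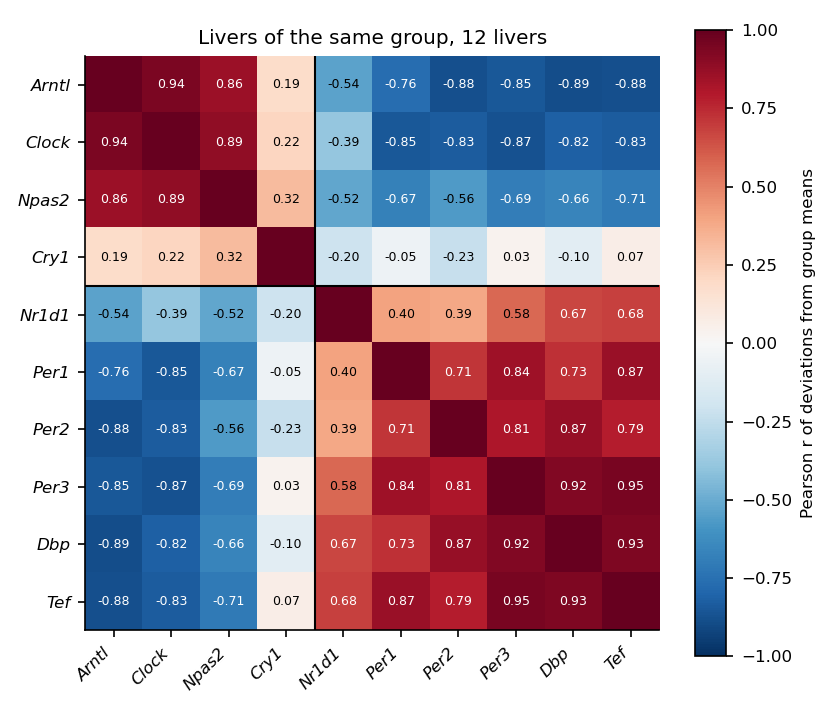
Pearson r, across 12 livers, of the deviations of log2 CPM from the group means for each pair of genes, red for positive and blue for negative. Black lines divide Arntl-phase from Dbp-phase genes. The block between Arntl, Clock and Npas2 and the Dbp-phase genes is blue throughout, from -0.39 to -0.89, and the row of Cry1 is pale.

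Over the 12 livers without removing the group means, the gene most like Dbp among 11725 was Per3 (r = 0.97), followed by Lrp4 (0.95), Tef (0.94), Rabep2 (0.93) and Nr1d2 (0.91), the paralog of Nr1d1. Nr1d1 was at rank 204 (r = 0.74), Per2 at rank 983 (r = 0.60) and Per1 at rank 3666 (r = 0.28). Among those most unlike Dbp were Tab2 (r = -0.94), Trim2 (-0.93), Fndc4 (-0.93) and Tars (-0.91). For Arntl the most alike were Smap2 (0.88), Kif2a (0.88), Larp1 (0.86), Acnat1 (0.85) and Itga5 (0.84), with Clock at rank 13 (0.81) and Npas2 at rank 22 (0.76), and the most unlike were Ankrd12 (-0.83), Hand2 (-0.80), Rnf19b (-0.79), Cd207 (-0.79) and Gltscr2 (-0.79). Thus 2 of the 5 genes most like Dbp were among the 10 genes, and none of the 5 most like Arntl.

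A list of 17 further genes of the clock was read beside the 10, among them the repressors Cry2, Nr1d2, Ciart, Bhlhe40 and Bhlhe41, the nuclear receptor Rora, the PAR bZIP factor Hlf and its antagonist Nfil3, Arntl2, Timeless, and the kinases and ubiquitin ligase subunits that set the life of PER and CRY. Of the 17, 16 were tested. With EtOH in WT, 1 was called higher and 2 lower, against 9.47% of all tested genes called. Nfil3, a repressor at D-boxes, rose from 9.06 to 11.3 CPM in WT+con to 25.6 to 29.0 in WT+EtOH (1.44 ± 0.112, adjusted P = 0.00143), and Bhlhe41 (DEC2, a repressor at E-boxes) fell (-1.58 ± 0.266, adjusted P = 0.0162), as did Btrc (-0.68 ± 0.118, adjusted P = 0.0175).

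With EtOH in Ahr HKO, 5 of the 16 were called higher and 1 lower, against 14.9% and 15.9% of all tested genes. Among them, Rora (0.73 ± 0.139, adjusted P = 0.00942) and Cry2 (0.83 ± 0.236, adjusted P = 0.0352) were higher, and Arntl2, the paralog of Arntl, was lower (-1.44 ± 0.36, adjusted P = 0.0237). Between the genotypes on con, 1 was higher and 5 were lower in Ahr HKO, against 15.4% and 14.2% of all tested genes. Btrc (-0.85 ± 0.113, adjusted P = 0.00254) and Fbxl21 (-2.25 ± 0.436) were lower, and Nfil3 was higher (1.48 ± 0.197, adjusted P = 0.00254). None was called between the genotypes on EtOH by edgeR, where 1.1% of all tested genes were. In that comparison 6 had an unadjusted P value under 0.05, as had 21% of all tested genes. The interaction was called for 6, against 22.3% of all tested genes. Of these, 5 had the higher response in Ahr HKO, against 11.2% of all tested genes. Among them were Bhlhe41 (2.41 ± 0.495, adjusted P = 0.00676) and Btrc (0.92 ± 0.189, adjusted P = 0.0070). The median log2 FC of the 16 genes was -0.05, 0.62, -0.03 and 0.17 in these 4 comparisons.

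**Figure D5:**
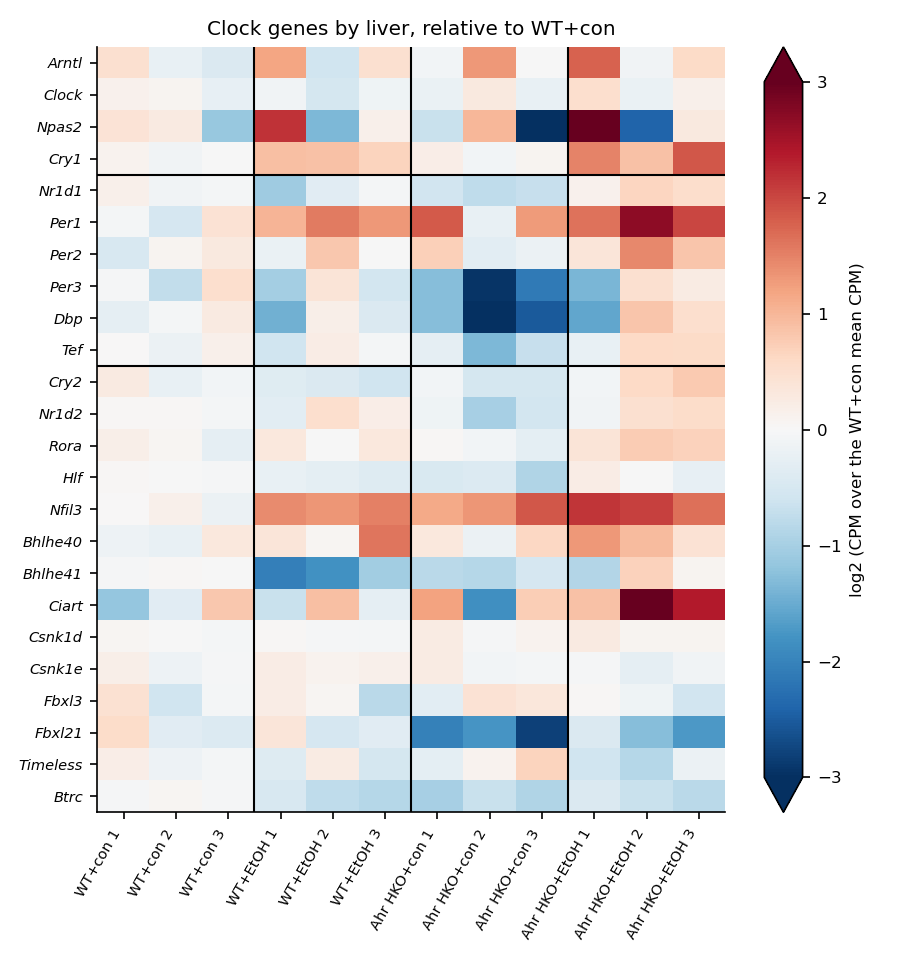
Log2 ratio of CPM in each liver to the WT+con mean, for Arntl-phase genes, Dbp-phase genes and further clock genes with a mean of at least 1 CPM, in blocks divided by black lines, with colours ending at -3 and 3. Dbp and Per3 are blue in Ahr HKO+con, down to -3.0 and -2.94, and Nfil3 is red in all groups but WT+con.

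Genes of liver metabolism known to follow the clock were taken as a second list of 13. With EtOH in WT, 1 was called higher and 1 lower, with EtOH in Ahr HKO 6 higher and 1 lower, between the genotypes on con 1 higher and 5 lower in Ahr HKO, and on EtOH none by edgeR, with 3 at an unadjusted P value under 0.05. Of all tested genes, 9.47% were called in the first of these comparisons, 14.9% were higher and 15.9% lower in the second, and 15.4% were higher and 14.2% lower in the third. In the comparison on EtOH, 1.1% of all tested genes were called and 21% had an unadjusted P value under 0.05. Upp2, a uridine phosphorylase, was at 259 to 452 CPM in WT+con, 93.7 to 171 in WT+EtOH, 7.85 to 54.0 in Ahr HKO+con and 201 to 338 in Ahr HKO+EtOH. It fell with EtOH in WT (-1.58 ± 0.291, adjusted P = 0.0210), was lower in Ahr HKO than in WT on con (-3.48 ± 0.655, adjusted P = 0.00826) and rose with EtOH in Ahr HKO (3.01 ± 0.644, adjusted P = 0.0138), and its responses differed by 4.61 ± 0.769 (adjusted P = 0.00257). Usp2, a deubiquitinase, rose with EtOH in Ahr HKO (3.38 ± 0.626, adjusted P = 0.00880). Gys2, the liver glycogen synthase, was lower in Ahr HKO on con (-1.26 ± 0.158, adjusted P = 0.00210) and higher with EtOH in Ahr HKO (1.15 ± 0.273, adjusted P = 0.0198), and Wee1, a kinase of the cell cycle, was lower in Ahr HKO on con (-1.53 ± 0.247, adjusted P = 0.00493). Nr1i3 (CAR, a receptor for foreign compounds) was higher with EtOH in WT (0.74 ± 0.0989, adjusted P = 0.00802) and in Ahr HKO (1.03 ± 0.204, adjusted P = 0.0108). Cyp7a1, the rate-limiting enzyme of bile acid synthesis, was lower in Ahr HKO on con (-4.33 ± 0.855, adjusted P = 0.00974), with WT+con livers from 36.5 to 217 CPM and Ahr HKO+con livers from 1.43 to 9.59 CPM.

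Per1 and several clock outputs also respond to glucocorticoids, so a list of 9 responsive genes was read beside them. Their summed level was 667 to 1370 CPM in WT+con, 1326 to 2071 in WT+EtOH, 4214 to 8227 in Ahr HKO+con and 4011 to 5372 in Ahr HKO+EtOH. In Ahr HKO most of the sum was the metallothioneins Mt1 and Mt2 and Tat, so it does not stand for all 9 genes. The mean levels of Mt1, Mt2 and Tat were 2526, 1630 and 1554 CPM in Ahr HKO+con. In Ahr HKO+EtOH they were 276, 186 and 3441 CPM. With EtOH in WT, 4 of 9 were higher and none lower, between the genotypes on con 7 of 9 were higher in Ahr HKO, with EtOH in Ahr HKO 1 was higher and 2 lower, and on EtOH 3 were higher in Ahr HKO. Of all tested genes, 4.84% were higher in the first of these comparisons, 15.4% were higher in the second, 14.9% were higher and 15.9% lower in the third, and 1.1% were called in the last. In WT, Tsc22d3 (1.39 ± 0.164, adjusted P = 0.00518) and Sgk1 (1.32 ± 0.165, adjusted P = 0.00625) rose together with Per1. Between the genotypes on con, Zbtb16 (2.78 ± 0.204, adjusted P = 0.000725) and Fkbp5 (2.26 ± 0.363, adjusted P = 0.00485) were higher. The part of these changes in the values of Per1 and the other clock genes was not tested.

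Markers of other liver cells moved with some of the groups as well, and in bulk liver fewer cells of a type and less RNA per cell cannot be told apart. With EtOH in Ahr HKO, where 15.9% of all tested genes were lower and 14.9% higher, 5 of 5 Kupffer cell markers were lower, with a summed level of 246 to 608 CPM in Ahr HKO+con and 152 to 188 in Ahr HKO+EtOH, against 268 to 355 in WT+con and 233 to 630 in WT+EtOH. Leukocyte markers were lower for 3 of 6 (summed 17.9 to 31.4 and 7.99 to 9.94 CPM) and endothelial markers for 2 of 5 (208 to 231 and 146 to 164 CPM), while 1 of 5 stellate cell markers was higher. In the same comparison 1 of 6 hepatocyte markers was higher, and their summed level was 70090 to 111600 CPM in Ahr HKO+con and 97950 to 106800 in Ahr HKO+EtOH. In WT with EtOH, where 9.47% of all tested genes were called, none of the Kupffer or endothelial markers was called by edgeR (0 and 0 at an unadjusted P value under 0.05), 2 leukocyte and 2 stellate markers were higher and 1 hepatocyte marker was lower. Between the genotypes on con, where 15.4% of all tested genes were higher and 14.2% lower, 2 of 6 leukocyte markers were higher and 1 lower in Ahr HKO, and 1 endothelial, 1 cholangiocyte and 1 hepatocyte marker were higher. Cholangiocyte markers summed to 44.5 to 476 CPM in Ahr HKO+con, with 1 of 5 lower with EtOH in Ahr HKO. Most of this sum was Spp1, at 35.0 to 462 CPM, so it does not stand for all 5 markers. By edgeR, Spp1 was called neither with EtOH in Ahr HKO (adjusted P = 0.0537) nor between the genotypes on con (adjusted P = 0.185). The part of cell composition in the values of the clock genes was not tested.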

How the data were processed

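RNA was sequenced by the authors from 12 mouse livers (TruSeq Stranded mRNA, poly(A), paired ends). The tools named in the submitters' processing notes are FastQC 0.11.7, Trimmomatic 0.38, HISAT2 2.1.0, Bowtie2 2.3.4.1 and StringTie 1.3.4d with mm10, without their settings. The deposited table holds, per gene and library, raw read counts, FPKM and TPM, 1 value of each as made by the authors, with no pooling of livers. The TPM values as deposited summed to 924962 to 987569 in a library and were not used further.

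Counts were tested with edgeR 4.0.16 (R 4.3.3) by the quasi-likelihood test, with filterByExpr over the 4 groups. Fits held the 6 libraries of each comparison, and all 12 for the interaction, with TMM factors taken within the libraries of the fit. P values were adjusted by the method of Benjamini and Hochberg over 14038 genes, and 0.05 was the threshold. The SE was derived from the fold change and the F statistic. CPM of a liver is its count over the table total and its TMM factor among all 12 libraries (0.925 to 1.16), and log2 CPM has a prior count of 2. FPKM, which the authors had normalised for length and depth, was used to compare levels between genes, and in limma 3.58.1 with a pseudocount of 1. DESeq2 1.42.0 was an alternative. With 46306518 to 74336255 reads on genes, 3 counts were 0.0425 to 0.0676 CPM, a level that covers counting error only. Alternatives were other tools, scalings, filters, call rules, a replicate block and leaving out each liver.

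The named genes were the 10 genes, the 5 most and least like Arntl and Dbp by Pearson r over 12 livers among genes with a mean of at least 1 CPM, and, of each further list, up to 4 per comparison with the smallest adjusted P values under 0.05 (2 genes that the rule picks are not reported here). The 10 genes, the lists and the rules were chosen with earlier results of these data known. The labels do not say how livers were numbered, so the main fits used no pairing. P values rest on the spread between the livers of a group, and the sources of that spread were not separated. No 2 of the 66 pairs of libraries were identical. The edgeR fit was tried on counts simulated with known fold changes for EtOH against con in WT, and the other steps were not tried on simulated data.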

Additional observations from a re-analysis of the deposited data

Results flagged for a closer look

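The response to EtOH differed between the genotypes for 2 of the 10 genes by the interaction of genotype and diet (edgeR). Of all tested genes, 22.3% were called in the same test, so the number of calls is near the background. For Nr1d1 the log2 response in Ahr HKO minus that in WT was 1.55 ± 0.309 (adjusted P = 0.00587), with all 3 livers of Ahr HKO+EtOH above all 3 of Ahr HKO+con and the WT groups overlapping. For Dbp it was 2.74 ± 0.839 (adjusted P = 0.0377), with liver 1 of Ahr HKO+EtOH, at 33.9 CPM, among the livers of Ahr HKO+con. Groups of 3 livers were too small for a test of single outlying livers.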

How the results depend on the processing

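Of the 12 fold changes called among the 10 genes, 91 of 106 values under other settings kept their call and 15 lost it, and 57 of 84 values with 1 liver left out kept it and 27 lost it. None of these 12 changed its direction. The number of the 10 genes called for EtOH in WT was 2, and 1 with all 12 libraries in a single fit, 0 with the replicate block and 1 by an unadjusted P value under 0.05 with a fold change above 2. In the same order, 1329, 1537, 517 and 886 of all 14038 tested genes were called. For EtOH in Ahr HKO it was 5, and 2 with the replicate block and 3 by limma on log2(FPKM + 1) with or without quantile normalisation. Of all tested genes, 4322 were called, and 3005 with the replicate block. Limma called 4149 of them with quantile normalisation and 4081 without. For Ahr HKO against WT on con it was 3, and 5 by an adjusted P value under 0.25 with a fold change above 1.5. These rules called 4161 and 3936 of all tested genes. For Ahr HKO against WT on EtOH it was 0, and 2 by DESeq2, 1 with all 12 libraries, 3 with the replicate block and 3 by the rule of 0.25 and 1.5. In this order, 155, 1511, 575, 245 and 1679 of all tested genes were called. For the interaction it was 2, and 4 by DESeq2, 1 with the replicate block and 1 in each of the 3 limma fits. Of all tested genes, 3137 were called, 3977 by DESeq2 and 2745 with the replicate block. The limma fits called 3219, 3446 and 3533 of them. With 1 liver left out, the numbers of the 10 genes called were 0 to 2, 2 to 6, 2 to 4, 0 and 1 to 4 in the order of these 5 comparisons. Over all tested genes they were 367 to 1026, 2588 to 3792, 2630 to 3748, 7 to 189 and 2267 to 3084. Arntl minus Dbp alone gave a log2 difference of 2.71 for Ahr HKO against WT on con, where the sets gave 0.59. In that comparison Dbp had a log2 FC of -2.08, and the 6 Dbp-phase genes a median of -0.69 with 2 above 0. Arntl had a log2 FC of 0.56, and the 4 Arntl-phase genes a median of 0.03.

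Replicate numbers do not pair the livers by any label, and deviations of same-numbered livers correlated at -0.127 to 0.285, so the replicate block was read only as an alternative. It moved the calls for EtOH in WT over all genes from 1329 to 517.

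Signs turned only for values that were not called. Limma on log2(FPKM + 1) and log2(FPKM + 0.1) gave 0.0214 and 0.0204 for Tef with EtOH in WT, and -0.00934 and -0.0307 for Per3 in Ahr HKO against WT on EtOH. With 1 liver left out, log2 fold changes with EtOH in WT ranged from -0.46 to 1.53 for Npas2, from -0.10 to 0.47 for Per2, from -0.76 to 0.0867 for Per3 and from -0.30 to 0.0756 for Tef. With EtOH in Ahr HKO they ranged from -0.28 to 1.02 for Arntl and from -0.42 to 3.40 for Npas2. For Ahr HKO against WT on con they ranged from -0.0458 to 0.89 for Arntl, from -0.21 to 0.0699 for Clock, from -1.67 to 0.42 for Npas2 and from -0.24 to 0.35 for Per2, and on EtOH from -0.24 to 0.93 for Arntl, from -1.60 to 2.21 for Npas2 and from -0.087 to 0.77 for Per3. For the interaction they ranged from -0.81 to 0.49 for Arntl, from -1.46 to 2.38 for Npas2 and from -0.73 to 0.13 for Per1.

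Over all genes, 1329 were called for EtOH in WT, 2335 by DESeq2 and 367 to 1026 with 1 liver left out. For EtOH in Ahr HKO 4322 were called, 1856 by an unadjusted P value under 0.05 with a fold change above 2 and 2588 to 3792 with 1 liver left out, and for Ahr HKO against WT on con 4161, 1569 and 2630 to 3748. For Ahr HKO against WT on EtOH 155 were called, and 1511 by DESeq2, 575 with all 12 libraries, 245 with the replicate block, 92, 382 and 477 in the limma fits, 1679 and 860 by the rules of 0.25 and 1.5 and of a fold change above 2, and 7 to 189 with 1 liver left out. The share of higher calls moved from 51.1% to 79.6% for EtOH in WT, from 64.5% to 18.6% for Ahr HKO against WT on EtOH and from 50.2% to 23.4% for the interaction by limma on log2(FPKM + 1), and was 47.2% by DESeq2 for the comparison on EtOH, with shifts of the median of all genes of up to 0.134, -0.199 and -0.214 in the FPKM fits without quantile normalisation. The hour of collection is not given in the sources used here, and its part in the differences was not tested. Npas2, with 0 to 412 counts, has the least depth.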
